A study of Mus musculus with 6 samples.

Results

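Antibody genes are assembled from separate segments, and the transcripts counted on those segments were followed here through 6 small intestine libraries. The members were the rows of the authors' gene table with a biotype of segment or constant region and a symbol starting with Igh (heavy chain), Igk (kappa light chain) or Igl (lambda light chain), with at least 100 read counts summed over the 6 libraries. This gave 182 of 45777 rows. The heavy chain had 94 members on chromosome 12 (83 V segments, 4 J segments and 7 constant regions), kappa had 79 on chromosome 6 (74 V, 4 J and 1 constant region), and lambda had 9 on chromosome 16 (3 V, 3 J and 3 constant regions). A further 207 immunoglobulin rows lay below the floor, 116 of them with no count in any library. The segments just below the floor were Ighv1-36 with 94 counts and Igkv6-29 with 76, and those just above it were Ighv7-4 with 101 and Igkv3-1 with 103. No heavy chain D segment reached the floor. The table marks 6 members as pseudogene segments (Ighv7-1, Ighv7-3, Ighv4-2, Ighv1-21, Ighv1-62 and Igkv3-11).

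The study sequenced total RNA from mouse small intestine to find genes that differ after overexpression of PRKCZ, the atypical protein kinase C zeta, in a project on the glucose effects of gastric bypass. Its 3 control libraries carry the title words DIO and GFP (1-1, 1-4 and 3-1), and its 3 overexpression libraries the title words DIO and zeta (2-1, 4-1 and 4-2). DIO stands in the titles of both groups and is not explained there, and the labels give no strain, age, vector, promoter or time. The labels do not say that each library is a separate animal, so p-values measure the spread between these samples, which may be technical.

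Prkcz, the gene to be overexpressed, was at 70.5, 98.6 and 96.9 CPM in libraries 1-1, 1-4 and 3-1 with the GFP label, against 82.5, 100.1 and 57.0 CPM in libraries 2-1, 4-1 and 4-2 with the PKCzeta label. CPM is the count divided by the library size, which was scaled by the TMM method, and values per library are always given in this order. The Prkcz ranges overlapped and the fold change was -0.15 on the log2 scale (PKCzeta minus GFP, as in all fold changes here; SE 0.24; edgeR's quasi-likelihood test with Benjamini-Hochberg adjustment, adjusted p = 0.95). The groups are therefore called by their labels only. Library totals were 77573133 to 93742978 counts, and members took 0.135% to 0.907% of them. Epithelial markers were abundant, with Epcam at 2313 to 4235 CPM. Mitochondrial genes took 9.08%, 3.37% and 10.7% of counts in the GFP-labelled libraries and 9.19%, 5.67% and 2.92% in the PKCzeta-labelled ones. The 3 libraries with the lowest mitochondrial shares were those with the most immunoglobulin counts. With ribosomal RNA and mitochondrial rows removed, 0 members were called, as with them, and the fold change of the IgA constant region Igha was -0.50 in both cases. This removal cannot show whether mitochondrial share and immunoglobulin level are linked, which was not tested.

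A B cell joins a V and a J segment, and in the heavy chain a D segment, into the exon that forms the antigen binding site, and this joined exon is spliced to a constant region. The constant region names the class: Ighm and Ighd stand for IgM and IgD on resting B cells, and Igha for IgA, the class that plasma cells of the intestinal lamina propria secrete. A B cell and its progeny keep the same joined V segments, so a clone that grows or secretes much antibody adds transcripts of a single heavy and a single light V segment. In a piece of tissue, fewer cells of a type and less RNA per cell cannot be told apart.

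The 5 heavy V segments that led in at least 1 library are shown because the dominance of single segments below rests on them. Each line gives the last 120 coding bases from GENCODE M21 (GRCm38, the assembly that mm10 names), 5′ to 3′ on the coding strand, and the capitals mark the bases after the last in-frame cysteine codon, where the germline part of the antigen-binding CDR3 loop begins.
Ighv7-1: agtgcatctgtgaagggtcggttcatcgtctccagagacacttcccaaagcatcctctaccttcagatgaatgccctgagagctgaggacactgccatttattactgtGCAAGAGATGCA
Ighv6-3: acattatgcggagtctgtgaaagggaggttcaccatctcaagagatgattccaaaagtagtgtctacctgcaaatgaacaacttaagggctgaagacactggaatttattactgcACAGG
Ighv1-55: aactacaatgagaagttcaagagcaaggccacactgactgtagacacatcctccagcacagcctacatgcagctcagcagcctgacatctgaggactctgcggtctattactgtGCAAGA
Ighv1-53: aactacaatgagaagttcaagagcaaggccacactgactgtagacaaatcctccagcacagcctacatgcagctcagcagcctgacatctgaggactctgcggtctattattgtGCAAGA
Ighv1-9: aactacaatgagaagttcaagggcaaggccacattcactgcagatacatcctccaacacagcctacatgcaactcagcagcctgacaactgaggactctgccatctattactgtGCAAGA
All 5 read on the minus strand of chromosome 12, from Ighv7-1 (chr12:113896408-113896946) to Ighv1-55 (chr12:115208095-115208527). Ighv1-53 and Ighv1-55 share 95.4% of their coding bases, so reads may be split between them. The nearest segment to Ighv7-1 is Ighv7-3 at 88.7%. Ighv7-1 is marked as a pseudogene segment in the table but as a V gene in GENCODE, whose coding sequence for it holds 0 in-frame stop codons.

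The 5 kappa V segments that led in at least 1 library and Iglv1, which led lambda in every library, are printed in the same way.
Igkv4-72: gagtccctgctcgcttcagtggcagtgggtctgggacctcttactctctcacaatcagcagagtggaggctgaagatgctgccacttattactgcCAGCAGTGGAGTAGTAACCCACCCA
Igkv2-112: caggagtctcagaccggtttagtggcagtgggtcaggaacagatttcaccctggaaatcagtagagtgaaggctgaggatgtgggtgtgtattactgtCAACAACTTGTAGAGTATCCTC
Igkv1-117: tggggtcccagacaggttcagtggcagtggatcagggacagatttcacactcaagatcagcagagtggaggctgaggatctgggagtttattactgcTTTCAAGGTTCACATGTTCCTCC
Igkv3-4: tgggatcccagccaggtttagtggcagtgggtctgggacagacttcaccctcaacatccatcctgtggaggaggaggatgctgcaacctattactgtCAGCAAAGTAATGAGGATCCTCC
Igkv6-23: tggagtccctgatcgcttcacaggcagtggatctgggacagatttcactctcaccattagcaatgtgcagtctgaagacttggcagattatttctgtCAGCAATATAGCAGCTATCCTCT
Iglv1: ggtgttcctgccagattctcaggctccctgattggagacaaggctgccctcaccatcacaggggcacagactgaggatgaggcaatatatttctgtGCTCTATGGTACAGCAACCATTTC
The kappa segments lie on chromosome 6, with Igkv4-72 at chr6:69226854-69227383 and Igkv6-23 at chr6:70260409-70260933 on the minus strand and the other 3 on the plus strand, and Iglv1 lies at chr16:19085017-19085460. Some have close relatives: Igkv1-117 shares 97.2% of its coding bases with Igkv1-110, Igkv4-72 95.7% with Igkv4-68, and Iglv1 96.9% with Iglv2. The nearest segment is at 94.5% for Igkv6-23, 94.2% for Igkv3-4 and only 83.1% for Igkv2-112. Over the 155 V members with a GENCODE coding sequence, the median identity to the nearest other segment was 95.4%, and 81 of them had a neighbour at 95% or more. Values of single V segments are therefore uncertain where reads could fit more than 1 segment. The germline sequence also lacks the mutations that activated B cells add, and no label or header says how mutated reads were counted.

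IgA was the main heavy chain class in every library. Igha (Entrez gene 238447, chr12:113256204-113260236) was at 1208, 5176 and 739.6 CPM under the GFP label, against 844, 1769 and 2423 CPM under the PKCzeta label. GFP 1-4 was far above all others, GFP 3-1 was lowest, and the PKCzeta-labelled values lay inside the range of the GFP-labelled ones. The fold change was -0.50 (SE 0.73, adjusted p = 0.947, edgeR's quasi-likelihood test with Benjamini-Hochberg adjustment), and without GFP 1-4 it was 0.79. Per length, in the deposited TPM, IgA made up 93.3%, 99.1% and 99.4% of heavy constant transcripts in the GFP-labelled libraries and 80.9%, 99.6% and 95.6% in the PKCzeta-labelled ones. PKCzeta 2-1 stood apart with the lowest share. The group means were 97.2% ± 3.41 and 92.1% ± 9.85 (SD, n = 3 each), with an exact two-sided permutation p of 0.7 (0.1 is the smallest that 3 against 3 allows), or 0.9 after adjustment over the 8 shares and diversity measures tested this way.

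**Figure D1:**
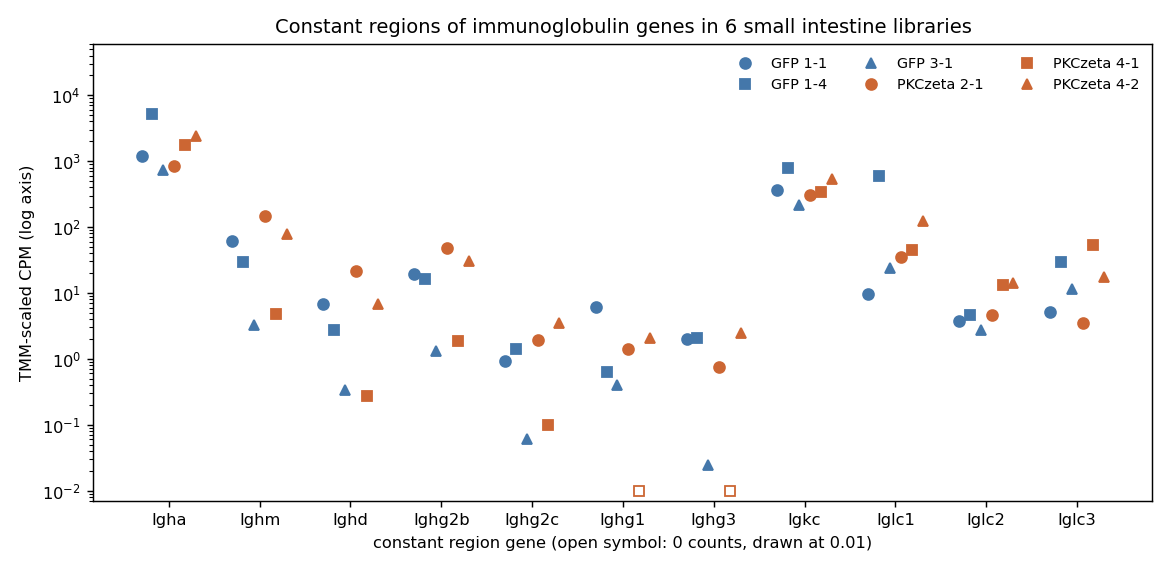
TMM-scaled CPM (log axis) of the 11 constant regions that are members, 1 point per library, blue for GFP-labelled and orange for PKCzeta-labelled libraries, with open symbols for 0 counts. In CPM, Igha is above every other constant region in all 6 libraries. In TPM (not drawn), which accounts for length, Igkc is above all heavy constant regions together in GFP 1-1, GFP 3-1 and PKCzeta 2-1. Ighm, Ighd and Ighg2b are lowest in GFP 3-1 and PKCzeta 4-1.

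The constant regions of IgM and IgD followed another order of libraries than IgA. Ighm was at 61.6, 29.5 and 3.29 CPM under the GFP label, against 147, 4.87 and 77.4 CPM under the PKCzeta label. It was highest in PKCzeta 2-1 and lowest in GFP 3-1 and PKCzeta 4-1, 1 library of each label, and the ranges overlapped. Ighd, spliced from the same long transcript as Ighm in naive B cells, was at 6.76, 2.71 and 0.339 CPM against 21.6, 0.271 and 6.83 CPM, with the same highest library and the same 2 libraries lowest. The fold changes were 1.28 for Ighm (SE 1.27, adjusted p = 0.922) and 1.55 for Ighd (SE 1.43, adjusted p = 0.917) by edgeR's quasi-likelihood test with Benjamini-Hochberg adjustment, so neither passed 0.05. As a share of heavy constant TPM, IgM ranged from 0.226% in PKCzeta 4-1 to 11.6% in PKCzeta 2-1.

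The 4 IgG constant regions were low, with 0.111% to 4.98% of heavy constant TPM together. Ighg2b, the IgG2b constant region, led among them in each library and was at 19.3, 16.3 and 1.33 CPM against 47.5, 1.86 and 30.9 CPM. It was again lowest in GFP 3-1 and PKCzeta 4-1. Ighg2c ranged from 0.0605 CPM in GFP 3-1 to 3.46 CPM in PKCzeta 4-2. Ighg1 was highest in GFP 1-1 at 6.08 CPM and Ighg3 in PKCzeta 4-2 at 2.45 CPM, and both had 0 counts in PKCzeta 4-1, which allows up to 0.0369 CPM there (3 counts, counting error only). None of the 4 passed the test, with fold changes from -1.02 for Ighg1 to 1.21 for Ighg2c.

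Kappa was the more abundant light chain in every library, and lambda the more variable one. Igkc (Entrez gene 16071, chr6:70726435-70726754), the only kappa constant region, was at 363, 784 and 213 CPM under the GFP label, against 302, 342.5 and 535 CPM under the PKCzeta label. Its highest and lowest libraries, GFP 1-4 and GFP 3-1, differed 3.68-fold, which gave it the smallest spread of the members with a mean of at least 10 CPM (SD of log2 CPM 0.66). Its fold change was -0.21 (SE 0.45, adjusted p = 0.964, edgeR's quasi-likelihood test with Benjamini-Hochberg adjustment). Kappa took 95.2%, 55.3% and 84.7% of light constant TPM in the GFP-labelled libraries and 87.5%, 75.4% and 77.5% in the PKCzeta-labelled ones. GFP 1-1 and GFP 1-4 held the extremes, so the PKCzeta-labelled values lay within the range of the GFP-labelled ones (exact two-sided permutation p = 0.9).

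The lambda constant regions moved apart from each other between libraries. Iglc1 was at 9.51, 600.4 and 24.1 CPM under the GFP label, against 34.8, 44.2 and 123 CPM under the PKCzeta label. GFP 1-4 was 4.87-fold above the next library, and without it the fold change turned from -1.65 (SE 1.44) to 2.01. Iglc3 was at 5.14, 29.5 and 11.5 CPM against 3.44, 53.6 and 17.6 CPM, with PKCzeta 4-1 highest. In that library Iglc3 took 48.5% of lambda constant TPM and Iglc1 39.6%, whereas Iglc1 took 51.5% to 94.6% in each of the other 5. Iglc2 was at 3.74, 4.63 and 2.76 CPM against 4.69, 13.2 and 14.1 CPM, so the groups did not overlap, but PKCzeta 2-1 lay just above GFP 1-4. Its fold change of 1.52 (SE 0.43) did not pass edgeR's quasi-likelihood test with Benjamini-Hochberg adjustment (unadjusted p 0.00734, adjusted p = 0.858). Iglc2 and Iglc3 share 96.2% of their coding bases, against 72.3% and 73.2% with Iglc1, so a division of reads between Iglc2 and Iglc3 is uncertain.

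The J segments are shown because each lambda constant region lies behind its own J segment, which gives a second reading of the same transcripts. Sequences are from GENCODE M21, 5′ to 3′ on the coding strand, and the capitals mark the start of the conserved motif that closes the CDR3 loop, TGGGG in heavy and TTCGG in light J segments.
Iglj1: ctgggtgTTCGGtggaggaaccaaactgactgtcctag
Iglj2: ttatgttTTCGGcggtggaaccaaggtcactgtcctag
Iglj3: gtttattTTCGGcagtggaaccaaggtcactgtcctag
Igkj2: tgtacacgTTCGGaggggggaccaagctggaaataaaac
Igkj5: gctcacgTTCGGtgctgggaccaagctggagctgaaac
Ighj2: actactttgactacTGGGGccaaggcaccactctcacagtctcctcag
Ighj4: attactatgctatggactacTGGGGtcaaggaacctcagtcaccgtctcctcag
The share of lambda J TPM from Iglj1 was 48.8%, 95.3% and 66.3% in the GFP-labelled libraries and 82.1%, 41.7% and 82.0% in the PKCzeta-labelled ones, beside Iglc1 shares of 51.5%, 94.6%, 62.6%, 80.9%, 39.6% and 79.4% of lambda constant TPM. Iglj3 led lambda J in PKCzeta 4-1 with 45.2%, where Iglc3 led the constant regions. In kappa, Igkj2 took 42.1% to 60.8% of J TPM in 5 libraries but 0.0864% in GFP 1-4, where Igkj5 took 67.0%. Igkj5 in turn took 0.303% in PKCzeta 4-1 and 20.3% to 34.2% in the other 4. J segments are only 38 to 54 bases long, and no label or header says how reads that cross from V to J were counted, so these shares are less certain than those of constant regions. In the heavy chain, Ighj2 took 23.5% to 61.8% and led in 5 libraries, and Ighj4 led in PKCzeta 2-1 with 43.8%. In GFP 1-4 the lead of Ighj2 was narrow (33.4% against 31.8% for Ighj1), and by counts Ighj1 led there.

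V segments and constant regions gave like totals per length. Summed heavy V TPM was 0.896 to 1.19 times summed heavy constant TPM in the 6 libraries, kappa V was 0.703 to 1.01 times Igkc, and lambda V 0.731 to 0.836 times lambda constant. Light constant TPM was 0.981 to 1.30 times heavy constant TPM. The total changed more than these ratios: all members together were at 2485, 9322 and 1527 CPM under the GFP label, against 2038, 3280 and 4515 CPM under the PKCzeta label. GFP 1-4 was highest in each class total in CPM (constant, J and V of each chain). Heavy V totals were 367, 1313 and 224 CPM against 268, 517 and 571 CPM, or 635 ± 592 and 452 ± 162 CPM (mean ± SD, n = 3 each). Kappa V totals were 409 ± 191 and 375 ± 92.0 CPM, and lambda V totals 200 ± 303 and 92.6 ± 54.4 CPM. In each class the ranges of the groups overlapped. Differences of mean log2 totals, taken for V segments and constant regions only, were 0.24 for lambda constant and 0.23 for lambda V. The lambda V sign is thus opposite to that of the CPM means above. For heavy and kappa chains the differences lay between -0.15 and -0.026. Each of these signs depended on single libraries.

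Single V segments dominated in some libraries but not in all, and the leading segment mostly differed from library to library. In GFP 1-1, Ighv1-55 alone made up 44.3% of heavy V TPM, and with Ighv7-1 at 20.2% these 2 segments passed 50% of the heavy V transcripts. In PKCzeta 4-2, Ighv1-9 made up 27.0%. In the kappa chain, Igkv4-72 made up 42.8% in GFP 1-1 and Igkv6-23 40.7% in PKCzeta 4-2. The leading segment took 44.3%, 24.9% and 20.9% of heavy V TPM in the GFP-labelled libraries and 15.0%, 12.7% and 27.0% in the PKCzeta-labelled ones, with 5 different leaders in 6 libraries. For kappa V the leading shares were 42.8%, 26.4% and 13.1% against 17.7%, 14.2% and 40.7%, again with 5 different leaders. Counts in place of TPM gave the same leaders in every library. Ighv7-1, the leader in GFP 1-4 and PKCzeta 2-1, is a pseudogene segment in the table. Without such segments the leading heavy V shares were 58.1%, 16.1% and 22.7% under the GFP label, against 16.2%, 13.8% and 30.4% under the PKCzeta label, and Ighv6-3 led in GFP 1-4 and Ighv1-26 in PKCzeta 2-1.

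**Figure D2:**
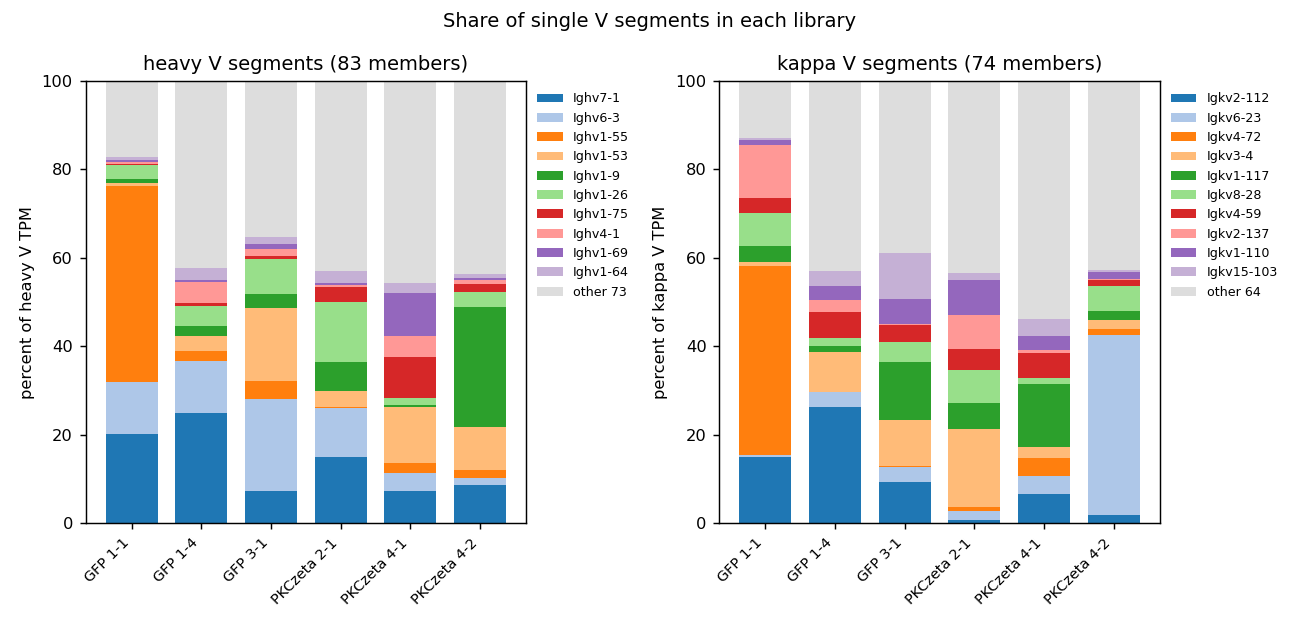
Stacked bars of the share of heavy V TPM (left, 83 members) and kappa V TPM (right, 74 members) held by the 10 segments with the highest mean share, in percent per library, with the remaining members in grey. Ighv1-55 and Igkv4-72 stand out in GFP 1-1 (44.3% and 42.8%), and Ighv1-9 and Igkv6-23 in PKCzeta 4-2 (27.0% and 40.7%).

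Igkv4-72 was at 148, 0.560 and 0.472 CPM under the GFP label, against 2.29, 14.9 and 6.20 CPM under the PKCzeta label. GFP 1-1 was thus 9.91-fold above the next library, while the 2 other GFP-labelled libraries were the lowest of all, a span of 313-fold. Ighv1-55 was high in the same library, at 157 CPM against 29.9 and 9.36 CPM in the other GFP-labelled libraries and 1.06, 11.2 and 9.95 CPM in the PKCzeta-labelled ones. Igkv6-23 was at 1.37, 19.7 and 7.80 CPM against 5.24, 14.2 and 183 CPM, and Ighv1-9 at 3.35, 28.2 and 6.54 CPM against 16.2, 1.89 and 147 CPM. For both, PKCzeta 4-2 was far above the rest (9.26-fold and 5.20-fold above the next library). Whether heavy and light segments that peak in the same library come from the same cells was not tested, since the table holds no paired chains.

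The other leaders differed in how widely they were shared. Ighv7-1 had the highest mean TPM of the heavy V members and led in GFP 1-4 and PKCzeta 2-1, with 84.3, 371 and 18.8 CPM under the GFP label, against 46.5, 43.5 and 57.9 CPM under the PKCzeta label. It held at least 7.19% of heavy V TPM in every library. Ighv1-53, the leader in PKCzeta 4-1, was at 2.42, 43.1 and 36.6 CPM against 9.28, 64.6 and 56.4 CPM, so GFP 1-1 and PKCzeta 2-1 were low in it. Igkv2-112 led kappa in GFP 1-4, with 52.9, 164 and 22.5 CPM against 2.31, 24.9 and 9.19 CPM. Igkv1-117 led in GFP 3-1 and PKCzeta 4-1, with 31.4 and 52.2 CPM there and 8.50 to 15.9 CPM elsewhere. Igkv3-4 led in PKCzeta 2-1 at 48.8 CPM, although GFP 1-4 was higher in CPM at 56.0. Iglv1 took 88.4% to 97.2% of lambda V TPM and ran from 15.4 CPM in GFP 1-1 to 535 CPM in GFP 1-4, and Iglv2 and Iglv3 peaked at 13.7 and 3.66 CPM.

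The effective number of V segments, the inverse Simpson index of the TPM shares, counts how many equally used segments would give the same concentration. For heavy V it was 3.95, 10.1 and 10.8 in the GFP-labelled libraries and 14.8, 16.8 and 9.76 in the PKCzeta-labelled ones, so GFP 1-1 was lowest and the groups overlapped through PKCzeta 4-2. The means were 8.30 ± 3.78 and 13.8 ± 3.64 (SD, n = 3 each; exact two-sided permutation p = 0.3, adjusted 0.8). For kappa V it was 4.38, 10.1 and 14.9 against 15.2, 18.5 and 5.56, with GFP 1-1 and PKCzeta 4-2 both low (exact two-sided permutation p = 0.5, adjusted 0.9). The leading shares of heavy and kappa V had exact permutation p of 0.3 and 0.8. With 3 against 3, none of these measures could reach 0.05. Without the segments marked as pseudogenes, the effective number of heavy V segments was 2.74, 14.6 and 9.70 under the GFP label. Under the PKCzeta label it was 15.7, 15.7 and 8.33. GFP 1-4 thus rose from 10.1 to 14.6, and the groups still overlapped through PKCzeta 4-2.

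The Ighv1 family gave the most heavy V transcripts in every library. With 44 members it held 43.1% to 66.5% of heavy V TPM in the 6 libraries. Ighv7 with 3 members gave 7.46% to 26.7%, and Ighv6 with 2 members 1.85% to 20.96%. In kappa, Igkv8 with 7 members ran from 8.54% to 17.7%, whereas Igkv4 with 20 members ran from 5.56% in PKCzeta 4-2 to 49.9% in GFP 1-1, and Igkv6 from 1.09% in GFP 1-1 to 46.3% in PKCzeta 4-2. The Ighv11 family was nearly limited to PKCzeta 4-1, with 8.04% of heavy V TPM there and at most 0.140% elsewhere. Its member Ighv11-2, named after its values were seen, was at 0, 1.85 and 0 CPM under the GFP label, against 0.0690, 42.0 and 0 CPM under the PKCzeta label, where 0 counts allow up to 0.0287 to 0.0378 CPM by library.

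Segments along the whole length of the loci were used. With the 83 heavy V members divided by distance from Ighj1, the 28 nearest (159 to 793 kb) gave 24.6% to 35.0% of heavy V TPM. The middle 28 gave 20.4% to 51.1% and the farthest 27 (1729 to 2570.3 kb) gave 21.3% to 52.6%. In kappa, measured from Igkj1, the nearest 25 gave 12.4% to 61.7%, with PKCzeta 4-2 highest, and the middle 25 gave 11.2% to 51.9%, with GFP 1-1 highest. These maxima lie where Igkv6-23 (462 kb from Igkj1) and Igkv4-72 (1495 kb) dominated.

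The overlap of V use had like medians within and between the labels, and a wider range between them. The overlap of heavy V use, the sum over segments of the smaller of both TPM shares, was 38.3% to 50.04% in the 6 pairs of the same label (median 42.2%) and 27.0% to 58.8% in the 9 pairs of different labels (median 43.4%). For kappa V it was 32.5% to 57.0% (median 39.4%) against 25.05% to 59.5% (median 36.9%). These are descriptions, since pairs share libraries.

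Immunoglobulin segments varied more among libraries than the median gene did. Over the 170 members that passed the filter on low counts (filterByExpr, which 12 members failed), the median SD of log2 CPM was 1.64 (quartiles 1.26 and 2.19), against 0.37 (0.24 and 0.59) over all 18456 tested genes. Among genes with a mean of at least 10 CPM the medians were 1.81 for 37 members and 0.26 for 8239 genes. The spread stood within both labels, at 1.58 within the GFP-labelled and 1.32 within the PKCzeta-labelled libraries, against 0.34 and 0.31 for all tested genes. Heavy V had a median of 1.77, kappa V 1.57 and constant regions 2.16. Of the 159 members counted in every library, 125 differed at least 10-fold between their highest and lowest library and 22 at least 100-fold, with a median of 22.4-fold.

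**Figure D3:**
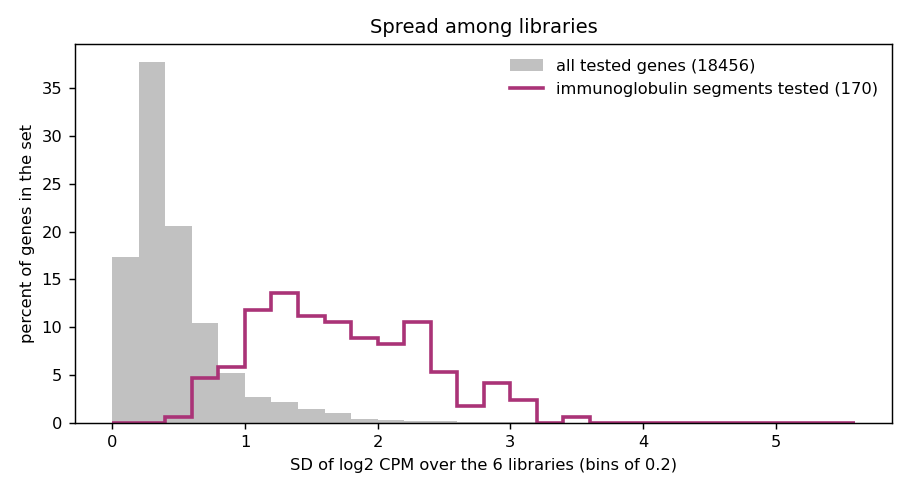
Histogram of the SD of log2 CPM over the 6 libraries, as percent of genes in each set, for the 170 immunoglobulin segments tested (line) and all 18456 tested genes (grey). The medians are 1.64 and 0.37.

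Members peaked in different libraries. The highest library was GFP 1-4 for 55 of the 182 members, PKCzeta 4-2 for 44, PKCzeta 4-1 for 38, PKCzeta 2-1 for 22, GFP 1-1 for 14 and GFP 3-1 for 9. In 101 members the highest library was at least 2-fold above the next, and in 35 at least 5-fold, and those 35 were all V segments (23 heavy and 12 kappa). Ighv1-22 showed this in GFP 1-4, with 0.340, 93.2 and 1.77 CPM under the GFP label, against 1.16, 1.88 and 4.14 CPM under the PKCzeta label. Ighv3-6 was also high only in GFP 1-4 at 69.7 CPM, with at most 8.77 CPM elsewhere, and Ighv10-1 peaked there at 47.3 CPM, with 14.2 CPM in PKCzeta 4-1. Igkv2-137 was high in 3 libraries, at 42.6 CPM in GFP 1-1, 21.2 in PKCzeta 2-1 and 17.0 in GFP 1-4, and at 0.387 to 2.66 CPM in the rest. The steadiest V segments with a mean of at least 10 CPM were Igkv4-59, at 6.34 to 34.7 CPM, and Igkv1-110, at 4.35 to 21.4 CPM.

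No immunoglobulin segment passed the test between the labels. In edgeR's quasi-likelihood test with Benjamini-Hochberg adjustment, 0 of 170 tested members and 0% of all 18456 tested genes had an adjusted p under 0.05, and the smallest adjusted p of a member was 0.858. An unadjusted p under 0.05 was found for 28 of 170 members (16.5%), 22 higher and 6 lower with the PKCzeta label, against 5.48% of all tested genes (2.41% higher and 3.07% lower). The groups' ranges did not overlap in 13 of the 170, 12 higher and 1 lower, or 7.65%, against 10.4% of all tested genes (4.72% higher and 5.66% lower). A fold change above 0 was found for 98 of 170, or 57.6%, against 54.3%. The median fold change of tested members was 0.53 (log2), against 0.035 for all tested genes. It was 1.38 without GFP 1-4, -0.014 without PKCzeta 4-1 and 0.010 without PKCzeta 4-2, so it depended on single libraries. The median SE of a member's fold change was 1.00, against 0.30 for all tested genes.

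Segments with the smallest p and separate ranges were mostly low. Ighv1-84 was at 0.0630, 0.343 and 0.218 CPM under the GFP label, against 3.76, 2.21 and 0.727 CPM under the PKCzeta label, with a fold change of 3.41 (SE 0.76, unadjusted p 0.00205). Igkv10-96 was at 2.53, 7.86 and 5.19 CPM against 14.4, 13.0 and 18.0 CPM, a fold change of 1.54 (SE 0.39). In these segments all 3 PKCzeta-labelled values lay above the GFP-labelled ones. So they did in Igkv1-135 (0.480 to 1.48 against 2.60 to 16.05 CPM), Igkv13-85 (0.354 to 1.17 against 1.87 to 4.404 CPM) and Igkv3-10 (0.0457 to 0.101 against 0.221 to 0.622 CPM). Ighv6-3, a leader in GFP 3-1, was the only tested member with separate ranges in the other direction, at 40.4, 145 and 44.9 CPM against 28.2, 20.0 and 8.81 CPM. Its fold change was -2.01 (SE 0.61, unadjusted p 0.0121). DESeq2 gave another count: 7 members higher and 1 lower had an adjusted p under 0.05 among 106 with one, against 0.566% of 14493 genes (0.304% higher and 0.262% lower). The 8 were Ighv1-84, Igkv1-135, Igkv10-96, Igkv13-84, Igkv13-85, Igkv5-43, Igkv8-21 and Ighv6-3, and in limma with voom and on log2(TPM + 1) the count was 0.

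Genes of cells that make IgA gave no call either, and Jchain had the same order of libraries as Igha. Jchain, which joins IgA into dimers, was at 702, 2074 and 472 CPM under the GFP label, against 531, 861 and 1136 CPM under the PKCzeta label, highest in GFP 1-4 and lowest in GFP 3-1 (fold change -0.36, SE 0.54). Mzb1, a chaperone of antibody-secreting cells, was at 6.86, 14.2 and 2.82 CPM against 8.47, 5.50 and 11.9 CPM. Tnfrsf17, the plasma cell survival receptor BCMA, was at 0.719, 2.08 and 0.642 CPM against 0.333, 0.775 and 1.38 CPM, and also highest in GFP 1-4. Of the 20 plasma cell genes listed, 10 had a fold change above 0 and 10 below, 0 passed an adjusted p of 0.05 and 0 an unadjusted p of 0.05. These 20 did not share a highest library: it was GFP 1-4 for 6, PKCzeta 4-2 for 5, GFP 3-1 for 4, PKCzeta 2-1 for 3 and GFP 1-1 for 2. Xbp1, a regulator of secretory cells that epithelium also expresses, stayed at 200.5 to 311 CPM. Pigr, the epithelial receptor that carries IgA into the lumen, was at 1279, 1684 and 2067 CPM against 1283, 1201 and 1155 CPM (fold change -0.47, SE 0.22, unadjusted p 0.0653), and unlike Igha it was highest in GFP 3-1. Of 13 genes of IgA transport and homing, 8 were above 0 and 5 below, with 0 called.

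Ighm and Ighd had the same highest library, and the same pair of lowest libraries, as the B cell genes. Ms4a1, the B cell surface protein CD20, was at 26.6, 9.13 and 0.775 CPM under the GFP label, against 65.6, 0.541 and 30.0 CPM under the PKCzeta label. All 20 listed B cell genes were highest in PKCzeta 2-1 and lowest in GFP 3-1 or PKCzeta 4-1. Their summed level was 188, 88.5 and 17.9 CPM under the GFP label, against 476, 15.8 and 201 CPM under the PKCzeta label. All 20 fold changes were above 0 with a median of 1.28, yet 0 passed an adjusted or an unadjusted p of 0.05, and the ranges of the labels overlapped. The part of these cells in the levels of the segments was not tested. PKCzeta 4-1, with the lowest summed B cell level, had the third highest Igha level, while PKCzeta 4-2 was second highest in both.

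**Figure D4:**
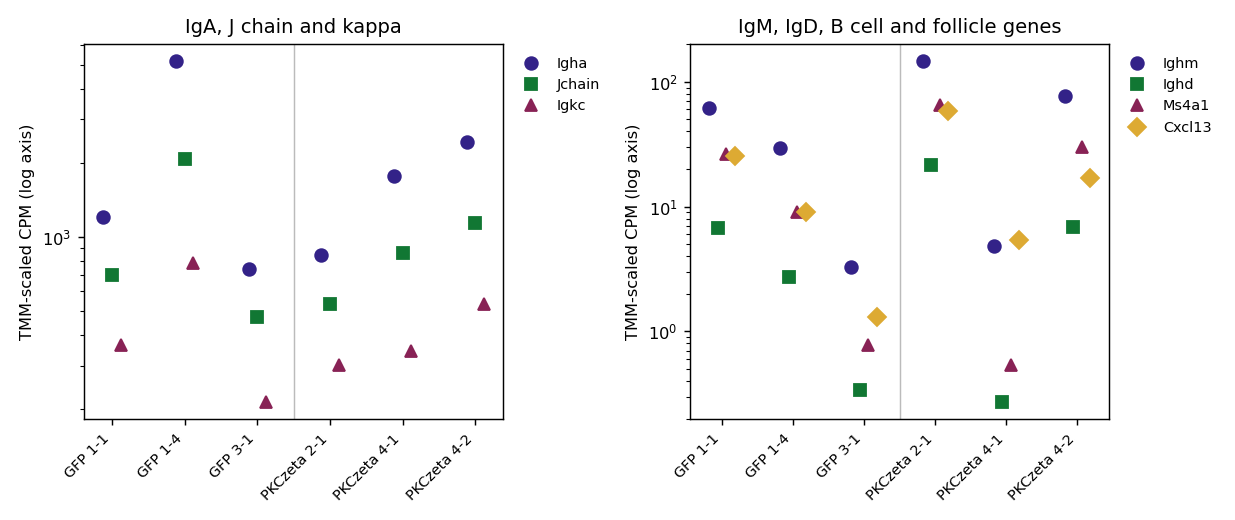
TMM-scaled CPM (log axis) per library for Igha, Jchain and Igkc (left) and for Ighm, Ighd, Ms4a1 and Cxcl13 (right), with a grey line between the GFP-labelled and the PKCzeta-labelled libraries. The left genes are highest in GFP 1-4, and the right genes are highest in PKCzeta 2-1 and low in GFP 3-1 and PKCzeta 4-1.

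Most of the listed genes of lymphoid follicles were highest in PKCzeta 2-1 as well. Cxcl13, the chemokine that draws B cells into follicles, was at 25.3, 8.99 and 1.31 CPM against 58.4, 5.36 and 16.9 CPM. Of 16 germinal centre and follicle genes listed, 15 were found in the table, 10 of them were highest in PKCzeta 2-1, 14 had a fold change above 0, and 0 were called (1 at an unadjusted p under 0.05). Cd3e, a T cell receptor component, was at 0.197 to 2.07 CPM, and 9 of 12 T cell genes were also highest in PKCzeta 2-1. The others were Gzma and Gzmb, highest in GFP 3-1, and Cd8a, highest in PKCzeta 4-1. The summed level of the 12 genes was 70.4, 36.7 and 61.4 CPM under the GFP label, against 67.0, 58.2 and 37.5 CPM. The 6 genes of the surrogate light chain and of V(D)J recombination summed to 0.0492 to 0.268 CPM, so these transcripts were near 0 in every library. Among 10 epithelial markers, 3 were lower with the PKCzeta label at an unadjusted p under 0.05 (Krt20, Cdh1 and Fabp2), with 0 called, and the part of tissue makeup in the levels of the segments was not tested.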

How the data were processed

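Total RNA from 3 GFP-labelled and 3 PKCzeta-labelled small intestine libraries was depleted of ribosomal RNA and made into stranded libraries, per the labels' protocols. FastQC, Trimmomatic, HISAT2 and StringTie with mm10 are named in the submitters' processing notes, without versions. The program that counted reads, and its use of strand and of reads with several matches, are not given in the sources used here. Counts, FPKM and TPM per gene stand in 1 deposited table, per the file headers. The authors' deposited counts are whole numbers without normalisation. The authors' TPM values, which account for length, served for shares within a class. The deposited FPKM values were not used.

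Counts were tested in edgeR 4.0.16 (R 4.3.3) with filterByExpr, TMM and a robust quasi-likelihood test, two-sided, with Benjamini-Hochberg adjustment over 18456 genes and a threshold of 0.05. The step was tested on simulated data. SDs of log2 CPM used a prior count of 2. Shares and effective numbers were compared by exact permutation over libraries. Sums over members got no p. Alternatives were DESeq2 1.42.0, limma 3.58.1 (voom, and log2(TPM + 1)), other scalings, filters and floors, counts in place of TPM, removal of 99 ribosomal RNA and mitochondrial rows, and leaving out each library. Named were all constant regions, the leading and the 5 most abundant segments of each V class, up to 6 per direction with the smallest p and separate ranges, the 5 largest and 3 smallest SDs at a mean of at least 10 CPM, and listed companion genes, 2 of which are not reported here. Other segments were named after their values were seen. The members, lists and tests were chosen with earlier results of these data known. All 182 members matched RefSeq positions (GRCm38.p6). A promoter motif search planned for the members was not run, since promoter windows of these segments were not used here.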

Additional observations from a re-analysis of the deposited data

How the results depend on the processing

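No call between the labels appeared under another scaling, filter, limma fit or left-out library, and DESeq2 alone gave 7 members higher and 1 lower with PKCzeta. On log2(TPM + 1) the fold changes turned to 0.11 for Igha, 0.18 for Igkc, 0.37 for Iglc1, 0.090 for Jchain and 0.053 for Prkcz, and with voom that of Iglc1 was 0.15. The cause was not tested. Of 41 results recomputed without each library, 19 changed sign in at least 1 case. The 41 include counts of calls and median SDs, which cannot change sign. The ranges were -8.99 to 0.38 percentage points for the IgA share, -0.21 to 5.46 for the IgM share, -9.78 to 10.2 for the kappa share and -11.5 to 4.45 for the leading kappa V share. On the log2 scale they were -0.93 to 0.79 for Igha, -1.75 to 1.16 for Ighg1, -1.85 to 0.22 for Ighg3, -0.55 to 0.45 for Igkc, -2.41 to 2.01 for Iglc1, -0.55 to 1.58 for Iglc3, -0.72 to 0.52 for Jchain and -0.35 to 0.047 for Prkcz. The median fold change of members ran from -0.014 to 1.38. The differences of mean log2 class totals ran from -0.63 to 0.78 (heavy constant), -0.69 to 0.58 (heavy V), -0.49 to 0.45 (kappa constant), -0.37 to 0.30 (kappa V), -0.79 to 1.77 (lambda constant) and -0.77 to 1.75 (lambda V). With summed TPM the differences of heavy constant, heavy V, kappa constant and kappa V turned from -0.026, -0.15, -0.044 and -0.053 to 0.19, 0.095, 0.18 and 0.18, and without pseudogene segments that of heavy V was 0.011. No paired analysis was possible because the 2 groups share no replicate number. With 3 libraries per label, the spread among libraries limits each comparison. Reads of V segments with near-identical copies and of short J segments, and segments with low counts, give uncertain values.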
